A study of Hypomesus transpacificus with 70 samples.

Results

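BCL6A, EYA2 and GADD45 are 3 regulators of cell survival and of the response to DNA damage that were measured in the gill of delta smelt (Hypomesus transpacificus), a small fish of the San Francisco Estuary. They were chosen by gene symbol from the study's list of salinity-responsive probes, which holds 413 genes with a symbol, and 5 of its 697 probes belong to them. The study drew up that list from the same fish, so the salinity differences of these genes given below are a description of them and no independent evidence of a response to salinity. Gill RNA of 70 fish was hybridized to 70 single-color oligonucleotide arrays, 1 fish to an array, with 36818 probes besides controls. All fish had been acclimated to about 2.3 ppt. Salinity was then changed over 6 h to 0.4, 6, 12 or 18 ppt, or held at 2.3 ppt in fish handled in the same way (the handling control), and gills were sampled at 0, 18 and 42 h after the target was reached. There were 4 fish at each exposure time at 0.4, 6, 12 and 18 ppt, except for 3 fish at 12 ppt at 18 h, 6 fish at each exposure time in the handling control, and 5 fish sampled before the experiment. Whole gill was used, so fewer cells of a type and less RNA per cell cannot be told apart in any value below.

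Proteins of the eyes absent family, to which EYA2 belongs, are transcriptional coactivators that bind homeobox proteins of the sine oculis type and also tyrosine phosphatases, and in mammalian cells they dephosphorylate the histone variant H2AX after DNA damage, which favors repair over apoptosis. GADD45 proteins are small nuclear proteins whose transcripts are induced by DNA damage and other stresses in mammalian cells, where they slow the cell cycle and activate stress kinases. BCL6 proteins are zinc finger repressors of transcription, best known from mammalian germinal center B cells, in which they hold down the checkpoint response to DNA damage. In fish gill, a tissue of ion-transporting cells in direct contact with the water, a change of salinity is known as a stress on cell volume and on proteins and DNA.

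The probe sequences are shown because each gene was read through them alone and because the paired probes of a gene share nearly all of their bases. Each was copied from the study's probe list and runs 5′ to 3′, with capitals for bases that the other probe of the gene does not cover.
EYA2 probe 21433: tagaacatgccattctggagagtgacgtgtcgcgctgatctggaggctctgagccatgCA
EYA2 probe 21434: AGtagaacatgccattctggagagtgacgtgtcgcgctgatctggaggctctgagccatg
GADD45 probe 11666: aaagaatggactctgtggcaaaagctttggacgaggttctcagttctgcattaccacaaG
GADD45 probe 11667: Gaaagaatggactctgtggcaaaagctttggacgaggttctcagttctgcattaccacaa
BCL6A probe 21727: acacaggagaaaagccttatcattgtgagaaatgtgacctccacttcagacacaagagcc
The EYA2 probes share 58 of 60 bases and the GADD45 probes share 59, so the paired probes are repeats of 1 measurement rather than independent ones. The list gives the GADD45 probes the zebrafish symbol gadd45ab, that is, 1 of the genes related to human GADD45A, and gives the BCL6A probe the symbol bcl6a. The study's methods describe a pair of overlapping probes per gene sequence, but the list holds only 1 for BCL6A. Any further BCL6A probe on the array was not looked at, so the values of this gene rest on the 1 probe that the study had listed. The delta smelt gene set of RefSeq (fHypTra1) holds bcl6aa and bcl6ab, and which of these the single listed BCL6A probe matches was not tested. GC content was 55% in the EYA2 probes and 45% in the other probes. Over the 70 arrays the log2 values of the EYA2 probes correlated at 0.935, and at 0.861 after the group means were taken out. For the GADD45 probes these correlations were 0.972 and 0.966.

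All 5 probes lay well above background on all 70 arrays, and none was saturated or marked as an outlier on any array, but 3 of the 5 were dim. The processed signal of the BCL6A probe ranged from 11.04 to 548 with a median of 94.7, and it reached 100 on 31 arrays. The signal of GADD45 probe 11666 ranged from 10.5 to 249 with a median of 71.4, and it reached 100 on 20 arrays, against 19 arrays for probe 11667. The EYA2 probes reached 100 on 53 and 49 arrays, with medians of 171 and 172. The filter used here kept probes with a signal of 100 or more on 50% or more of the arrays, which is 1 reading of the limits on signal and detection in the study's methods. Only the EYA2 probes of the members passed it, although all 5 are on the study's list. The BCL6A and GADD45 probes were therefore added to the 14425 probes that passed. Among the probes so kept, the mean level of the BCL6A probe stood at the 3rd percentile and that of GADD45 probe 11666 at the 0.1 percentile. The results of both genes are also given without the filter, where their mean levels stood at percentiles 61.8 and 53 of all genes and single probes.

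Before any normalization, the median signal of the BCL6A probe was 73.3, 93.9, 98.3, 90.8 and 188 at 0.4, 2.3 (control), 6, 12 and 18 ppt. For EYA2 probe 21433 the medians in the same order were 245, 191, 242, 128 and 143, and for GADD45 probe 11666 they were 93.0, 71.6, 67.3, 60.1 and 54.7. In these raw signals the BCL6A median was therefore highest at 18 ppt, and the EYA2 and GADD45 medians were highest at 0.4 ppt. In the pre-experiment fish the medians were 97.8 for BCL6A, 59.5 for EYA2 probe 21433 and 31.1 for GADD45 probe 11666. The arrays themselves differed in brightness, with array medians from 12.9 to 131. Those medians had a middle value of 58.6, 59.8, 71.5, 48.8 and 54.4 at 0.4, 2.3 (control), 6, 12 and 18 ppt. The 70 arrays came from 18 slides, scanned in 2 sessions on separate days (54 and 16 arrays), with a photomultiplier setting of 580 (40 arrays) or 610 (30 arrays).

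**Figure D1:**
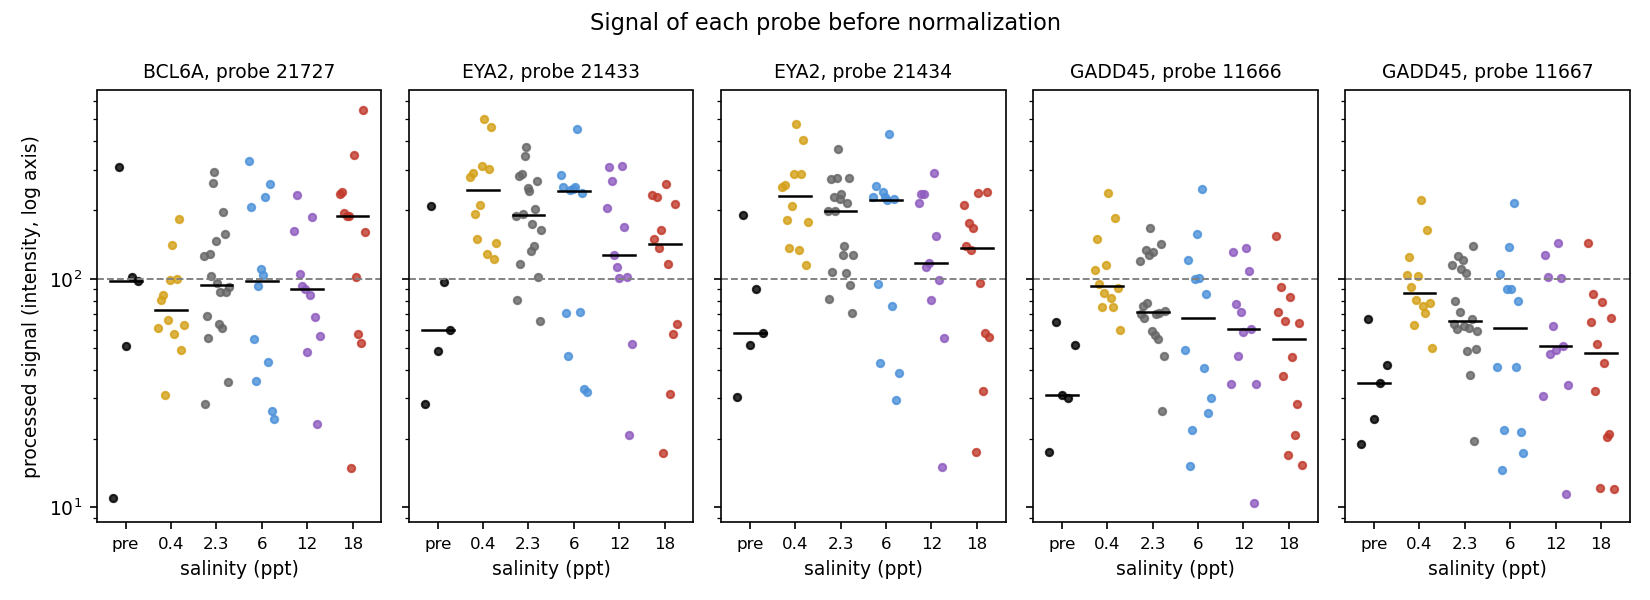
Processed signal of each probe in each fish before normalization (intensity, log axis) against salinity in ppt, with the pre-experiment fish at the left, black bars for medians and a dashed line at a signal of 100. The BCL6A probe has its highest median, 188, at 18 ppt, and the GADD45 probes lie below 100 in most fish.

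All further values are log2 of the quantile-normalized signal, averaged over the probes of a gene in each fish. A difference of 1 is a ratio of 2 between signals. Differences were tested in limma with 16 group means fitted to all 70 arrays, and the Benjamini-Hochberg adjustment ran over 14232 genes and single probes, with 0.05 as the threshold. Overall differences weight the 3 exposure times equally. Replicates were individual fish. The labels of the control and pre-experiment fish also carry a letter, A, B or C, which they do not explain and which no model used. The study's methods describe extra exposure containers only for the handling control, so the fish of each group at 0.4, 6, 12 or 18 ppt appear to have shared a container. Container and group then cannot be told apart, and the errors and p-values measure the spread between fish and not between containers.

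BCL6A transcript was more abundant at 18 ppt than at 2.3 ppt or 0.4 ppt. With the filter it had the largest difference between 18 and 0.4 ppt of the 3 genes. Without the filter these differences were close in size, at 1.07 ± 0.232 for BCL6A, -0.92 ± 0.169 for EYA2 and -0.99 ± 0.182 for GADD45 (SE). With the filter the BCL6A level averaged 6.18, 6.64, 6.69, 6.87 and 7.48 at 0.4, 2.3 (control), 6, 12 and 18 ppt, with within-group SDs of 0.279, 0.479, 0.405, 0.408 and 0.508 over 12, 18, 12, 11 and 12 fish. The order of the means thus followed salinity, but the levels at 6 and 2.3 ppt differed by 0.05 ± 0.162 (SE; limma adjusted p = 0.906) and those at 12 and 2.3 ppt by 0.23 ± 0.167 (limma adjusted p = 0.616). Without the filter the BCL6A difference of 6 ppt from 2.3 ppt was -0.04 ± 0.212, so the order of these neighbors turned. At 18 ppt all 12 fish lay above the handling control mean of their exposure time, and at 0.4 ppt 11 of 12 lay below it. Without the filter these counts were 11 of 12 at 18 ppt and 11 of 12 at 0.4 ppt.

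At 18 ppt the BCL6A levels were 7.19, 7.04, 8.62 and 8.15 at 0 h, 7.07, 7.53, 7.18 and 7.66 at 18 h, and 7.58, 6.96, 7.64 and 7.14 at 42 h. In the handling control the lowest, median and highest levels were 6.04, 6.61 and 7.34 at 0 h, 6.01, 6.74 and 7.13 at 18 h, and 5.89, 6.70 and 7.32 at 42 h. With the filter the 18 ppt fish therefore lay in the upper part of the control range or above it. The groups overlapped at every exposure time. Of the 4 fish at 18 ppt at 0 h, fish 3 and 5 stood well above every control fish. At 0.4 ppt the levels were 6.19, 6.79, 5.81 and 6.34 at 0 h, 5.74, 5.70, 6.04 and 6.18 at 18 h, and 6.19, 6.43, 6.43 and 6.29 at 42 h. In these filtered levels all fish at 18 ppt lay above all fish at 0.4 ppt at the same exposure time. Without the filter the levels over all exposure times ranged from 5.83 to 8.63 at 18 ppt and from 5.78 to 6.80 at 0.4 ppt. Those ranges overlap. Before normalization, fish 5 at 18 ppt at 42 h had a signal of 14.9, against 57.1 to 141 at 0.4 ppt at 42 h. EYA2 probe 21433 also had its lowest signal of all arrays in this fish, 17.2. The array medians ran from 15.4 to 104 at 18 ppt at 42 h and from 44.5 to 99.9 at 0.4 ppt at 42 h. At 6 ppt the BCL6A levels were 6.33, 7.39, 6.62 and 6.45 at 0 h, 7.70, 7.09, 6.92 and 6.76 at 18 h, and 6.16, 6.39, 5.89 and 6.62 at 42 h. At 12 ppt they were 7.63, 6.75, 6.92 and 7.13 at 0 h, 7.38, 7.20 and 6.77 at 18 h, and 6.84, 6.72, 5.79 and 6.20 at 42 h. At 12 ppt all fish lay above the control mean at 0 and 18 h, and 2 of 4 did at 42 h, with overlap at every exposure time.

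At 18 ppt BCL6A stood 0.84 ± 0.162 above the handling control (SE; 95% interval 0.512 to 1.16; 1.78-fold; limma adjusted p = 0.00634). Over all genes and single probes, 1 of 14232 (0.00703%) was called higher at 18 ppt and 17 (0.119%) lower. BCL6A, which entered this set from the study's list and not through the filter, was the 1 called higher. That call held without any 1 of the 70 fish, with adjusted p between 0.00181 and 0.029, but it was met under only 8 of 16 alternatives. Without the filter the difference was 0.76 ± 0.212 and its limma adjusted p 0.465, and in the authors' own log2 table it was 0.76 with a limma adjusted p of 0.36. At 0.4 ppt BCL6A stood at -0.47 ± 0.162 relative to the control (95% interval -0.791 to -0.144; 1.38-fold lower; limma adjusted p = 0.32). No gene or probe was called at 0.4 ppt in either direction (0%), with 618 higher and 755 lower at an unadjusted p under 0.05.

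Set directly against each other, 18 ppt exceeded 0.4 ppt by 1.30 ± 0.177 for BCL6A (SE; 95% interval 0.948 to 1.66; 2.47-fold; limma adjusted p = 2.23e-06), and 12 of 12 fish lay above the 0.4 ppt mean of their exposure time. In this comparison 13 of 14232 genes and single probes (0.0913%) were called higher at 18 ppt and 27 (0.19%) lower, and BCL6A ranked 5th by p. The difference stayed past the threshold under all 16 alternatives, with values from 0.76 to 1.49 and a highest adjusted p of 0.0281, and without any 1 fish. At the successive exposure times it was 1.47 (0 h), 1.45 (18 h) and 0.99 (42 h), each ± 0.307 (limma adjusted p of 0.0886, 0.0281 and 0.145). The 18 h value was the only 1 of these past the threshold, where 2 features (0.0141%) were called higher. It was lost under 9 of 15 alternatives. It was also lost without fish 1, 2 or 6 at 0.4 ppt or any 1 of the 4 fish at 18 ppt, with adjusted p between 0.0518 and 0.195. The 0 h value passed without fish 2 at 0.4 ppt (adjusted p = 0.046) and without fish 1 or 2 at 18 ppt (0.0351 and 0.0158).

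**Figure D2:**
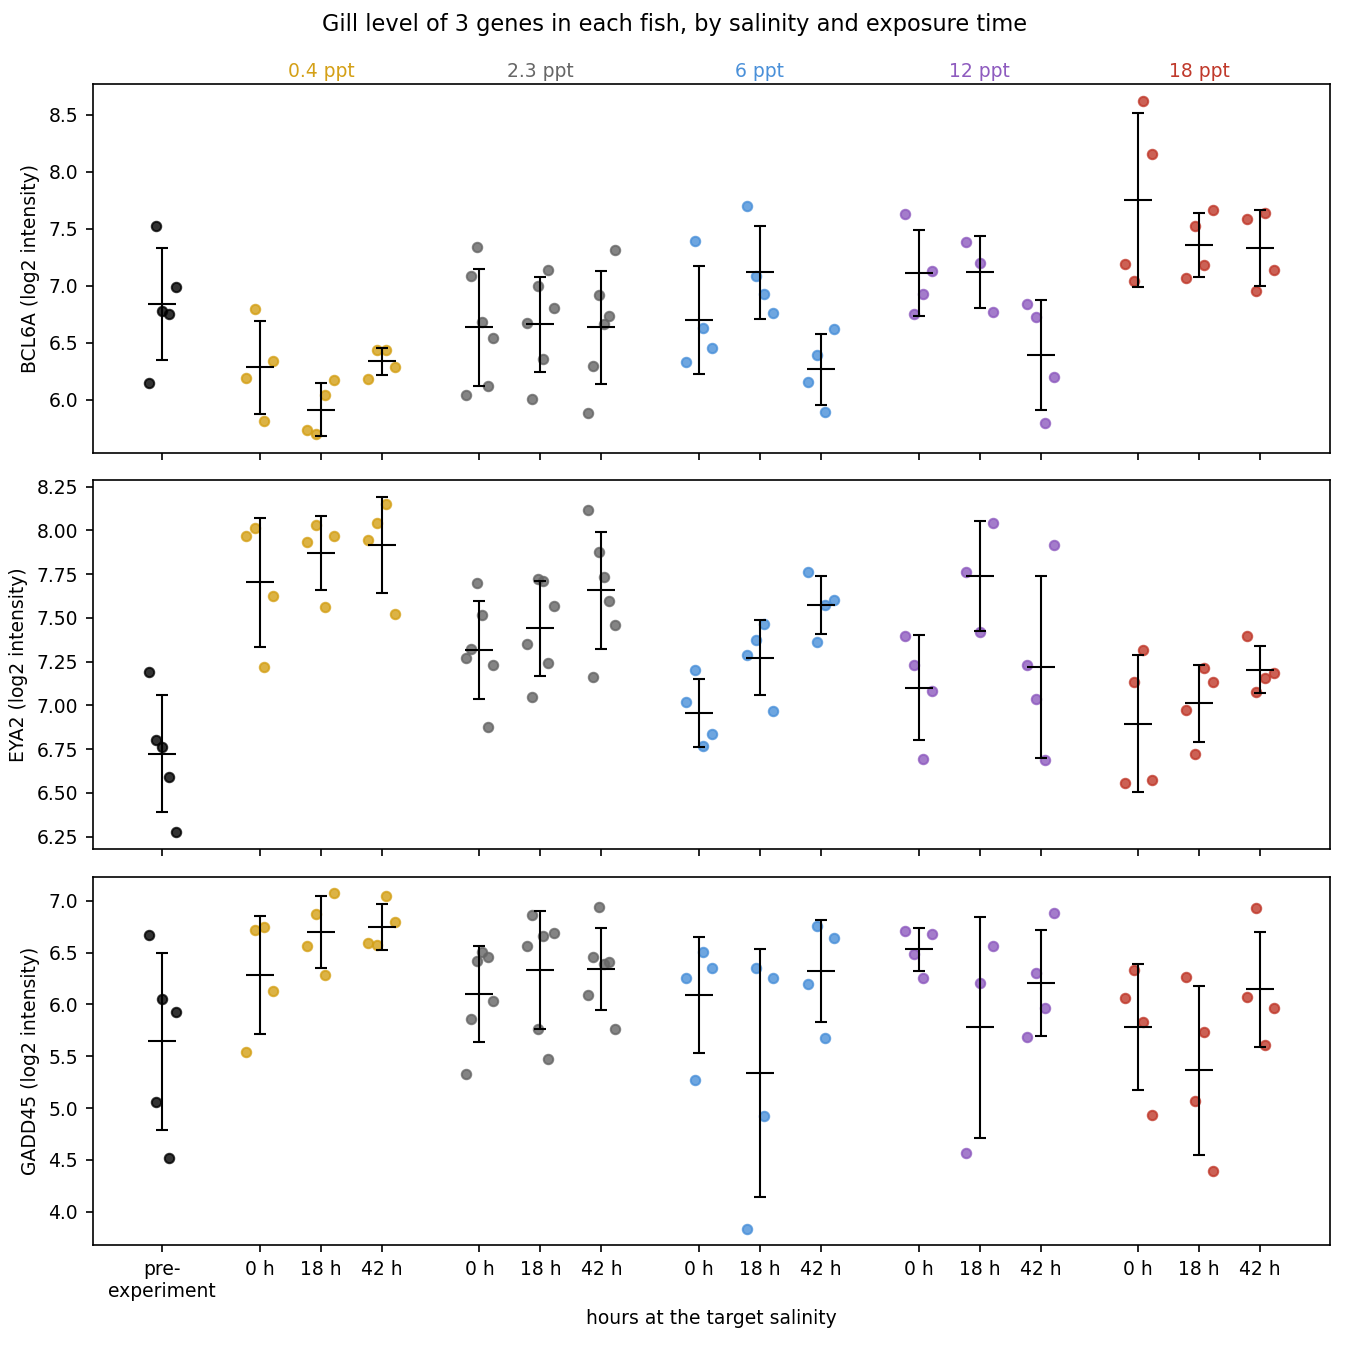
Level of each gene (log2 of the quantile-normalized intensity) in each fish (points) by salinity and hours at the target salinity, with the pre-experiment fish at the left. Black bars mark group means with the SD as whiskers. In these filtered levels all BCL6A values at 18 ppt lie above those at 0.4 ppt of the same exposure time. EYA2 lies highest at 0.4 ppt.

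EYA2 was reversed at the extremes, with the highest level at 0.4 ppt and the lowest at 18 ppt, while its mean at 12 ppt lay above that at 6 ppt. Its level averaged 7.83, 7.47, 7.27, 7.35 and 7.04 at 0.4, 2.3 (control), 6, 12 and 18 ppt, with within-group SDs of 0.292, 0.297, 0.194, 0.399 and 0.27. The differences of 6 and 12 ppt from the control were -0.21 ± 0.114 and -0.12 ± 0.118 and did not pass the threshold (SE; limma adjusted p of 0.478 and 0.715). At 6 ppt 10 of 12 fish lay below the control mean of their exposure time, and at 12 ppt 7 of 11 did. Without the filter the 6 ppt difference was -0.32 ± 0.154 (limma adjusted p = 0.476). At 18 ppt all 12 fish lay below the control mean of their exposure time, and at 0.4 ppt 10 of 12 lay above it. Without the filter these counts were 11 of 12 at 18 ppt and 10 of 12 at 0.4 ppt.

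At 18 ppt the EYA2 levels were 6.55, 7.13, 7.32 and 6.57 at 0 h, 6.97, 6.72, 7.22 and 7.13 at 18 h, and 7.40, 7.08, 7.16 and 7.19 at 42 h. At 0.4 ppt they were 7.97, 8.01, 7.22 and 7.62 at 0 h, 7.93, 8.03, 7.56 and 7.97 at 18 h, and 7.95, 8.04, 8.15 and 7.53 at 42 h. In the handling control the lowest, median and highest levels were 6.87, 7.30 and 7.70 at 0 h, 7.05, 7.46 and 7.72 at 18 h, and 7.16, 7.67 and 8.12 at 42 h. Fish at 18 and at 0.4 ppt did not overlap at 18 and 42 h and overlapped at 0 h, where fish 3 at 18 ppt lay above fish 3 at 0.4 ppt. Both groups overlapped with the control at every exposure time.

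EYA2 at 18 ppt stood at -0.44 ± 0.114 relative to the control (95% interval -0.664 to -0.208; 1.35-fold lower; limma adjusted p = 0.164), and at 0.4 ppt it stood 0.36 ± 0.114 above it (95% interval 0.13 to 0.586; 1.28-fold; limma adjusted p = 0.292). Neither passed the threshold over all features. With Tukey's test within the gene, which the methods describe and which does not adjust over genes, both did (Tukey-adjusted p of 0.0021 at 18 ppt and 0.0166 at 0.4 ppt). The difference of 18 ppt from 0.4 ppt was -0.79 ± 0.125 (95% interval -1.04 to -0.545; 1.73-fold lower; 12 of 12 fish; limma adjusted p = 5.46e-05), the 9th smallest p of all features. It remained past the threshold under all 18 alternatives, between -0.94 and -0.54 with a highest adjusted p of 0.0354, and without any 1 fish. At 0, 18 and 42 h it was -0.81, -0.86 and -0.71, each ± 0.216, with limma adjusted p of 0.643, 0.176 and 0.145, and the 42 h value passed without fish 1 at 18 ppt (adjusted p = 0.0385).

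GADD45 had its highest mean at 0.4 ppt and its lowest at 18 ppt, as EYA2 did. Its residual SD was 0.624 with the filter and 0.44 without it, against 0.298 and 0.406 for EYA2. Its level averaged 6.58, 6.26, 5.92, 6.17 and 5.76 at 0.4, 2.3 (control), 6, 12 and 18 ppt, with within-group SDs of 0.405, 0.481, 0.814, 0.632 and 0.669. At 0.4 ppt 10 of 12 fish lay above the control mean of their exposure time, and at 18 ppt 10 of 12 lay below it. The lowest GADD45 level of all 70 fish was that of fish 1 at 6 ppt at 18 h, 3.84 with the filter, whereas the lowest 6 ppt level without it was 4.75.

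At 18 ppt the GADD45 levels were 6.06, 6.33, 5.83 and 4.93 at 0 h, 6.26, 5.06, 5.74 and 4.39 at 18 h, and 6.07, 6.93, 5.61 and 5.97 at 42 h. At 0.4 ppt they were 5.54, 6.72, 6.75 and 6.13 at 0 h, 6.56, 6.87, 6.29 and 7.07 at 18 h, and 6.59, 6.57, 7.04 and 6.79 at 42 h. The 18 ppt and 0.4 ppt fish were separate at 18 h and overlapped at 0 and 42 h. In the handling control the lowest, median and highest levels were 5.33, 6.23 and 6.50 at 0 h, 5.48, 6.62 and 6.86 at 18 h, and 5.76, 6.40 and 6.94 at 42 h.

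The GADD45 difference from the control was -0.50 ± 0.229 at 18 ppt (95% interval -0.953 to -0.0373; 1.41-fold lower; limma adjusted p = 0.495) and 0.32 ± 0.229 at 0.4 ppt (95% interval -0.14 to 0.775; 1.25-fold; limma adjusted p = 0.69), so neither passed the threshold. The difference of 18 ppt from 0.4 ppt was -0.81 ± 0.251 (1.76-fold lower; 10 of 12 fish; limma adjusted p = 0.201). Without the filter on dim probes it was -0.99 ± 0.182 with a limma adjusted p of 0.00255, in a fit where 27 of 36577 features (0.0738%) were called lower at 18 ppt. In that fit its levels averaged 6.66, 6.22, 5.88, 6.14 and 5.67 at 0.4, 2.3 (control), 6, 12 and 18 ppt. With no filter 11 of 12 fish at 18 ppt lay below the control mean, and 11 of 12 at 0.4 ppt lay above it. The call on GADD45 therefore depended on the processing, and its direction did not change under any of the 18 alternatives.

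**Figure D3:**
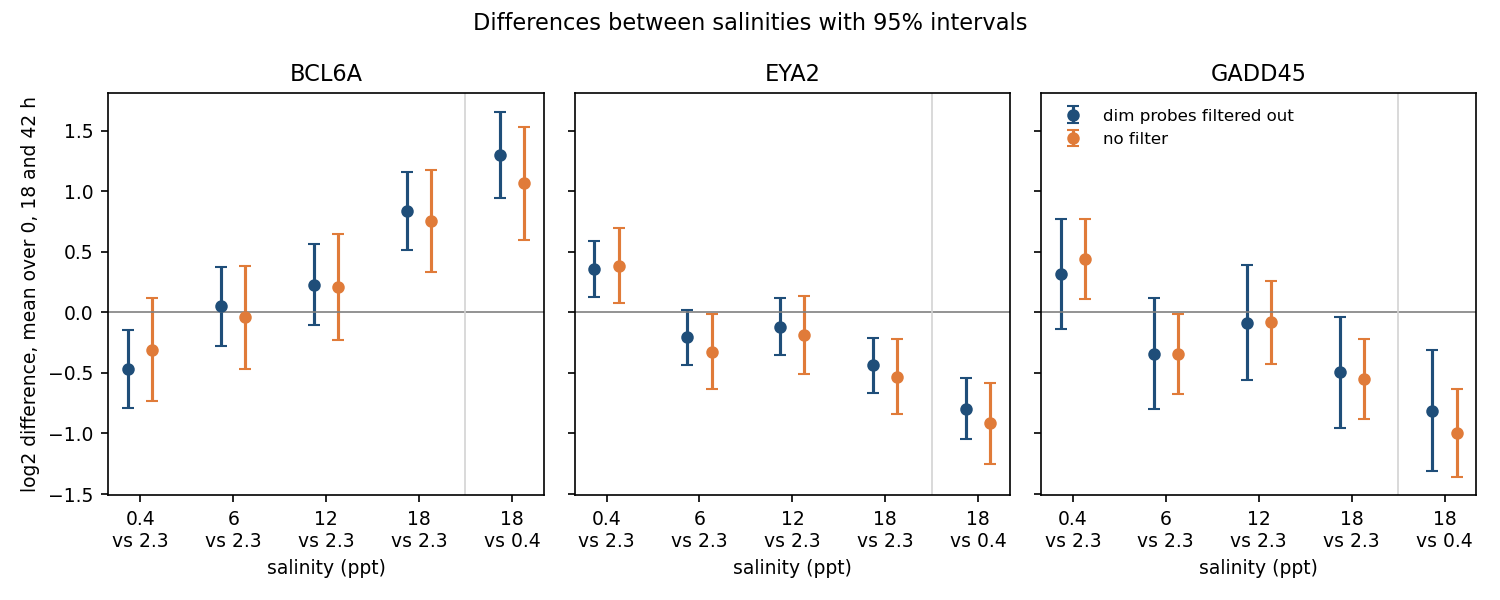
Log2 difference (mean over 0, 18 and 42 h) of each salinity from the 2.3 ppt handling control, and of 18 ppt from 0.4 ppt (right of the grey line), with 95% intervals, for the filtered probe set (blue) and with no filter (orange). BCL6A runs upward with salinity to 0.84 at 18 ppt and EYA2 and GADD45 run below 0 there, and the no-filter interval of GADD45 is the narrower one.

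Across the 5 salinities, BCL6A was the 1 member with a positive slope. It was 0.61 ± 0.0848 per 10 ppt (SE; limma adjusted p = 2.51e-06), in a test that called 4 of 14232 features (0.0281%) with a positive slope. EYA2 had a slope of -0.35 ± 0.0597 per 10 ppt (limma adjusted p = 0.000404), and GADD45 had one of -0.34 ± 0.12 (limma adjusted p = 0.39), where 30 features (0.211%) were called with a negative slope. Without the filter the GADD45 slope was -0.41 ± 0.087 (limma adjusted p = 0.0175), beside 0.0875% of features called in that direction. The BCL6A and EYA2 slopes were then 0.525 ± 0.111 and -0.406 ± 0.0808 (limma adjusted p of 0.0175 and 0.00934). The EYA2 slope was not past the threshold with slide as a fixed block (adjusted p = 0.13).

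The main effect of salinity was past the threshold for BCL6A and EYA2 (limma adjusted p of 7.94e-05 and 0.00127, ranks 7 and 10 by p) and not for GADD45 (0.245, rank 1102), where 119 of 14232 features (0.836%) were called. Without the filter 0.191% of features were called, and the adjusted p was 0.0972 for BCL6A, 0.016 for EYA2 and 0.016 for GADD45. BCL6A thus lost this call where GADD45 gained it. The interaction of salinity and exposure time, called for 0.0562% of features, was not past the threshold for any member (limma adjusted p of 0.334 for BCL6A, 0.497 for EYA2 and 0.571 for GADD45).

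Of the 3 genes, 1 passed the test of exposure time, a share close to that over all features. The main effect of exposure time had a limma adjusted p of 0.00949 for EYA2, 0.13 for BCL6A and 0.143 for GADD45, in a test that called 35.5% of all features. With a signal of 100 on every array EYA2 did not pass (0.251), while BCL6A (0.0193) and GADD45 (0.0446) did. Without the filter 18% of features were called for time, GADD45 among them (adjusted p = 0.0415). In the handling control EYA2 averaged 7.32, 7.44 and 7.66 at 0, 18 and 42 h, with SDs of 0.28, 0.272 and 0.333 in 6 fish each, and its difference of 42 h from 0 h was 0.34 ± 0.176 (limma adjusted p = 0.246). At 6 ppt EYA2 was at 7.76, 7.36, 7.57 and 7.60 at 42 h, against 7.02, 7.20, 6.77 and 6.84 at 0 h. These fish did not overlap, and the difference of 0.62 ± 0.216 was past the threshold (limma adjusted p = 0.0345), as were 12.4% of all features in that direction. It passed under 13 of 17 alternatives, and it was lost without fish 1, 3 or 4 of the 42 h group or fish 1, 4 or 5 of the 0 h group, with adjusted p from 0.0509 to 0.122. At 12 ppt EYA2 was at 7.76, 7.42 and 8.04 at 18 h, against 7.40, 7.23, 6.69 and 7.08 at 0 h, again without overlap, and the difference of 0.64 ± 0.233 did not pass (limma adjusted p = 0.107). At 42 h at 12 ppt EYA2 was 0.12 ± 0.216 above 0 h, in 2 of 4 fish, and at -0.52 ± 0.233 relative to 18 h (limma adjusted p of 0.704 and 0.374). BCL6A at 6 ppt was at -0.85 ± 0.307 at 42 h relative to 18 h, without overlap in the filtered levels (limma adjusted p = 0.141). At 12 ppt it was at -0.72 ± 0.307 at 42 h relative to 0 h, with overlap (limma adjusted p = 0.0714). In the handling control BCL6A differed by 0.03 or less between exposure times.

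EYA2 was the member with a call against the fish sampled before the experiment. Its levels were 7.97, 8.01, 7.22 and 7.62 at 0.4 ppt at 0 h, against 7.19, 6.80, 6.76, 6.59 and 6.28 in the 5 pre-experiment fish. At the end of the 6 h change to 0.4 ppt it was 0.98 ± 0.205 higher than in these fish (1.97-fold; limma adjusted p = 0.0176), beside 29 of 14232 features (0.204%) called in that direction, and all 4 fish lay above all 5. It passed under 11 of 17 alternatives, and without the filter the difference was 1.06 (limma adjusted p = 0.195). Without fish 1 or 2 at 0.4 ppt, or without B4 or C4 of the pre-experiment fish, the adjusted p was between 0.0505 and 0.15. In the handling control at 0 h the difference from the pre-experiment fish was 0.60 ± 0.185, in 6 of 6 fish (limma adjusted p = 0.405). Against that control at 0 h, EYA2 at 0.4 ppt was 0.38 ± 0.197 higher, with overlap (limma adjusted p = 0.744). The difference from the pre-experiment fish thus holds handling and time as well as salinity. At 18 ppt at 0 h EYA2 was 0.17 ± 0.205 above the pre-experiment mean. BCL6A averaged 6.84 ± 0.494 and GADD45 5.64 ± 0.855 in the pre-experiment fish (SD, n = 5). BCL6A at 18 ppt at 0 h was 0.91 ± 0.291 above the pre-experiment mean, in 4 of 4 fish (limma adjusted p = 0.882), and GADD45 at 0 h was 0.64 ± 0.412 above it at 0.4 ppt in 3 of 4 fish and 0.89 ± 0.412 above it at 12 ppt in 4 of 4 fish (limma adjusted p of 0.439 and 0.653).

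Within scanner settings and scan days the differences of 18 ppt and of 0.4 ppt from the control kept their signs. At 18 ppt BCL6A stood 1.05 ± 0.235 above the control at the photomultiplier setting of 580 and 0.61 ± 0.255 above it at 610, and 0.84 ± 0.19 and 1.30 ± 0.174 above it on the larger and the smaller scan day. EYA2 at 18 ppt stood at -0.37 ± 0.141 and -0.50 ± 0.167 at the settings of 580 and 610, and at -0.52 ± 0.132 and -0.08 ± 0.2 on the scan days. GADD45 at 18 ppt stood at -0.63 ± 0.266 and -0.40 ± 0.388 at the settings, and at -0.55 ± 0.281 and -0.26 ± 0.414 on the scan days. The smaller scan day held 2 fish at 18 ppt and 6 control fish. At 0.4 ppt, at the settings of 580 and 610, BCL6A stood at -0.34 and -0.57, EYA2 at 0.50 and 0.22, and GADD45 at 0.36 and 0.14.

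In the filtered levels the members were only weakly related between fish of the same group. The deviations of BCL6A and GADD45 from their group means correlated at -0.375 over 70 fish (permutation p = 0.00459, adjusted p = 0.0138 over 3 pairs; Spearman's rho -0.347, permutation p = 0.00924, adjusted p = 0.0277). Without the 2 fish farthest from the BCL6A median the correlation was -0.419, and within the settings of 580 and 610 it was -0.269 and -0.504. BCL6A and EYA2 correlated at 0.175 (permutation p = 0.24, adjusted p = 0.36) with a rho of 0.149 (permutation p = 0.294), at 0.192 without the 2 farthest fish, and at 0.369 and -0.107 within the settings. EYA2 and GADD45 correlated at 0.0843 (permutation p = 0.526, adjusted p = 0.526) with a rho of 0.103 (permutation p = 0.45), at 0.0273 without the 2 farthest fish, and at 0.103 and 0.0686 within the settings. Deviations of BCL6A, EYA2 and GADD45 correlated with the log2 array median at 0.528, 0.276 and -0.252, and 49.1% of all features correlated with BCL6A at 0.3 or more in size. With array brightness taken out, which was chosen after seeing the data, BCL6A and GADD45 correlated at -0.294 (adjusted permutation p = 0.0654). Without the filter they correlated at -0.202 (adjusted permutation p = 0.144), and BCL6A and EYA2 then correlated at 0.528 (adjusted permutation p = 0.00117), so these relations depended on the processing.

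**Figure D4:**
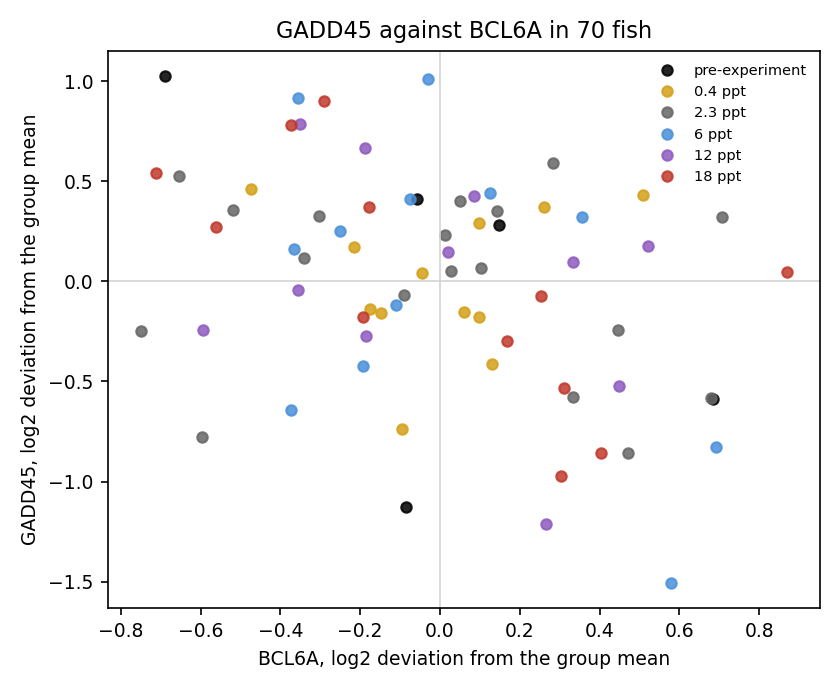
Deviation of GADD45 from its group mean against that of BCL6A (both log2), 1 point for each of 70 fish, colored by salinity. The points trend downward at r = -0.375, with wide scatter.

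Over the 16 group means, as a description with no test, BCL6A and EYA2 correlated at -0.632, BCL6A and GADD45 at -0.665, and EYA2 and GADD45 at 0.591. Without the filter these values were -0.401, -0.691 and 0.805. Group means share their arrays between genes. Among 345 other listed genes with a symbol, EYA2 was most like capn5a, a calcium-dependent protease (r = 0.904), odc1, the rate-limiting enzyme of polyamine synthesis (0.888), and si:dkey-239b22.1 (0.871). The genes most like GADD45 were COQ10A (2 of 2), a coenzyme Q-binding protein (0.786), gspt1l, a translation termination factor (0.773), and zc3h12a, known in mammals as an endonuclease for cytokine transcripts (0.762). Those most like BCL6A were cby1, an antagonist of beta-catenin in mammals (0.745), the potassium channel kcnj1b (0.65), and slc12a2, the sodium, potassium and chloride cotransporter of seawater ionocytes (0.635). Without the filter the order changed, with capn5a, odc1 and si:dkey-239b22.1 at ranks 1, 5 and 19 for EYA2. COQ10A (2 of 2), gspt1l and zc3h12a were then at ranks 7, 88 and 8 for GADD45, and cby1, kcnj1b and slc12a2 at ranks 2, 1 and 4 for BCL6A.

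Other genes of these pathways were taken from the same list. Of 9 listed genes annotated to DNA damage and repair, 3 are the members and 5 of the 6 others were tested. None of these 5 passed the threshold at 0.4, 6, 12 or 18 ppt. Their median difference was 0.36, -0.05, 0.23 and 0.13 in that order, against -0.01, -0.02, -0.01 and -0.03 over all features. The smallest p values at 0.4 ppt were those of si:ch73-340m8.2, listed as similar to a Src-type tyrosine kinase, at 0.67 ± 0.196 (limma adjusted p = 0.253), and of prp19, a ubiquitin ligase of the spliceosome, at 0.36 ± 0.122 (limma adjusted p = 0.316). The smallest at any salinity was that of prp19 at 12 ppt, at 0.495 ± 0.126 (limma adjusted p = 0.162). All 5 differences were positive at 12 and 18 ppt, against 3 of 5 at 0.4 ppt and 1 of 5 at 6 ppt.

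Of 26 other apoptosis genes tested, none passed at 0.4 or 6 ppt, 1 was lower at 12 ppt and 3 were lower at 18 ppt, where 0.0281% and 0.119% of all features were called lower. Their medians were 0.22, -0.21, 0.22 and 0.00 at 0.4, 6, 12 and 18 ppt. At 18 ppt zgc:163121, listed as similar to glutamate decarboxylase, fell by 1.56 ± 0.159, and it fell by 1.01 ± 0.165 at 12 ppt (limma adjusted p of 1.05e-09 and 0.00113). At 18 ppt the transcription regulator tsc22d1 fell by 1.38 ± 0.176 and socs2, a suppressor of cytokine signaling, fell by 0.89 ± 0.197 (limma adjusted p of 9.18e-07 and 0.0281).

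Of 21 other cell cycle genes tested, none passed at 0.4 or 6 ppt, 1 was higher at 12 ppt and 1 was lower at 18 ppt, where 0.00703% of all features were called higher and 0.119% lower. Their medians were 0.16, -0.13, 0.23 and 0.07 at 0.4, 6, 12 and 18 ppt. At 12 ppt the histone chaperone nasp was higher by 0.67 ± 0.136 (limma adjusted p = 0.0269), and at 18 ppt the calcium-binding protein s100a11 fell by 0.86 ± 0.182 (limma adjusted p = 0.0201). Over all features, 1 was called higher and 4 lower at 12 ppt, and at 6 ppt none was called in either direction (0%), with 566 higher and 984 lower at an unadjusted p under 0.05. The study chose all of these genes for their response in the same fish, so their shares above those of all features are no independent evidence.

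Of the tested markers of ionocytes, the ion-transporting cells of the gill, 2 of 5 passed the threshold at 18 ppt, both lower, and none at 0.4 ppt. Of all features, 0.119% were called lower at 18 ppt and 0% in either direction at 0.4 ppt. Of 7 ionocyte markers chosen, the 5 tested were those with a symbol on the study's list of salinity-responsive probes. The study drew up that list from the same fish, so the share of these markers past the threshold is no independent evidence. At 18 ppt the sodium pump subunits atp1a1a.4 and atp1a1a.1 stood at -1.65 and -0.73 relative to the control (log2; limma adjusted p of 0.000367 and 0.0307), while atp1b1b, slc12a2 and rhcga stood at -0.65, 0.75 and -0.21 and did not pass. The summed level of the 5 (normalized signal, not log) had medians of 41060, 34170, 24260, 30870 and 20480 at 0.4, 2.3 (control), 6, 12 and 18 ppt. Its range was 5959 to 30360 at 18 ppt, 23690 to 51670 at 0.4 ppt and 20280 to 71120 at 2.3 ppt, and these ranges overlapped. Mean log2 levels were 13.86 for atp1a1a.4, 12.65 for atp1b1b, 11.33 for rhcga, 8.97 for atp1a1a.1 and 7.98 for slc12a2. The brightest of them therefore weighed most in the sum, so the sum is no measure of ionocyte number. Of 6 leukocyte markers 1 was tested, hcls1, at -0.48 at 18 ppt and 0.69 at 0.4 ppt, and of 5 epithelial markers 2 were tested, cldna and pkp3a, at -0.78 and -0.18 at 18 ppt. None of these 3 passed the threshold. No marker of blood, muscle or cartilage had a symbol on the study's list. The part of cell composition in the differences of BCL6A, EYA2 and GADD45 was not tested.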

How the data were processed

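Gill RNA of 70 fish was measured on single-color Agilent arrays. The authors deposited the intensity values from Feature Extraction 11.5.1.1 (processed signal, background-subtracted, not normalized between arrays), and a table of log2 values that the authors had quantile normalized, used here as an alternative. The authors used Genespring and R. Here the kept probes (14428) were those reaching a signal of 100 on 50% of arrays or more, plus the BCL6A and GADD45 probes, which did not. Outlier spots (2036, or 0.202%) were left out, and a floor of 1, quantile normalization and log2 followed in that order. The probes listed for a symbol were averaged. Models were fitted in limma 3.58.1 (R 4.3.3) with 16 group means, 54 residual and 3.37 prior degrees of freedom. Correlations used 100000 permutations within groups. On simulated data for 18 ppt minus 2.3 ppt over 14232 features, 32% of true differences of 0.5 and 82% of 1 were recovered, with 5.79% of calls false. The simulated noise was independent between features and arrays and held no slide, brightness or container effects. These shares are therefore no estimate for the real arrays. The members and gene lists were chosen with earlier results of these data known. The members are always named. Further names follow a rule: in each annotation list up to 4 genes past the threshold, otherwise the 2 smallest p, and per member the 3 listed genes with the most similar group means. Precision is set by the fish in each group. The photomultiplier settings are those named in the array files. The fish number in the sample labels did not pair fish: deviations of same-numbered fish of other groups correlated at 0.005 on average, against 0.001 for other numbers. Alternatives were other scalings, background correction, filters, outlier handling, the authors' table, single probes, blocks and covariates, array weights, Tukey's test with emmeans 1.11.2.8 and leaving out each fish. The normexp correction used median signals.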

Additional observations from a re-analysis of the deposited data

Results flagged for a closer look

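In the filtered levels BCL6A at 6 ppt lay on opposite sides of the handling control mean at 18 and 42 h. All 4 fish lay above the handling control mean at 18 h, by 0.46 on average, and all 4 lay below it at 42 h, at -0.37 on average, which is what marked the result among 36 combinations of gene, salinity and pairs of exposure times. The change in the difference was -0.82 ± 0.396 (42 h minus 18 h; limma adjusted p = 0.989), so it was not past the threshold. Before normalization the signals overlapped, from 35.8 to 329 at 18 h and from 92.7 to 228 at 42 h. The array medians of these fish ran from 26.43 to 97.45 at 18 h and from 67.16 to 130.84 at 42 h. The related difference of 42 h from 0 h at 6 ppt was -0.43 with the filter and 0.19 without it. No fish stood apart from its group by Dixon's test at the 95% level in 45 combinations of a gene and a group of 4 to 6 fish.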

How the results depend on the processing

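No slope and no overall difference of 18 ppt from 2.3 or 0.4 ppt, or of 0.4 ppt from 2.3 ppt, changed direction for BCL6A, EYA2 or GADD45 under the alternatives run, while small differences that had not passed did so, such as BCL6A at 6 ppt minus 2.3 ppt under 7 of 15 alternatives. The 18 ppt minus 2.3 ppt difference of BCL6A was no longer past the threshold with 75th percentile scaling (0.731), median scaling (0.763), no filter (0.757), a signal of 100 on every array (0.584), detection above background on 50% of arrays (0.759), the authors' table (0.758), the replicate block (0.834, limma adjusted p = 0.0961) or slide as a fixed block (0.927). The adjusted p of the BCL6A salinity effect was then 0.0543 (75th percentile), 0.0972 (no filter), 0.0741 (background) and 0.0536 (authors' table). For GADD45, 75th percentile scaling, median scaling, no filter, the background filter and the authors' table brought the 18 ppt minus 0.4 ppt difference (-0.983, -1.008, -0.993, -0.991, -0.995), the slope (-0.426, -0.415, -0.412, -0.411, -0.412) and the salinity effect (adjusted p of 0.00912, 0.00715, 0.016, 0.0123, 0.00681) past the threshold. The last 4 of these did so for the GADD45 time effect (0.024, 0.0415, 0.0332, 0.0236), as did a signal of 100 on every array (0.0446), under which the time effect of BCL6A passed (0.0193) and that of EYA2 did not (0.251). With slide as a fixed block the EYA2 slope (-0.263) and salinity effect (0.11) did not pass, and with array brightness as a covariate the BCL6A time effect did (0.0207). Tukey's test within the gene passed BCL6A (-0.467) and EYA2 (0.358) at 0.4 ppt, EYA2 at 18 ppt (-0.436) and GADD45 at 18 ppt minus 0.4 ppt (-0.813). Array weights passed BCL6A (-0.511) and EYA2 (0.358) at 0.4 ppt, EYA2 at 18 ppt (-0.512) and the BCL6A interaction (0.0284), but their estimation stopped before convergence and called 3554 features for salinity, against 119. The correlations between fish were run without the filter and with array brightness taken out. That of BCL6A with EYA2 passed without the filter (0.528), and that of BCL6A with GADD45 did not without the filter (-0.202) or with brightness taken out (-0.294, an alternative chosen after seeing the data). The cause of these changes was not tested.

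Counts of features called for salinity were 74 (75th percentile), 70 (no filter), 27 (100 on every array), 14 (slide fixed) and 309 (brightness). The number tested was 3164 with 100 on every array, 36577 with no filter and 13552 with array weights. It was 14232 in the main fit and under the other alternatives named here. Counts out of unlike numbers tested cannot be compared directly. At 18 ppt against 2.3 ppt 18 were called, against 11 (median scaling), 2 (100 on every array), 4 (replicate block), 7 (slide fixed) and 38 (array weights). At 18 ppt against 0.4 ppt 40 were called, against 6, 15 and 555 with 100 on every array, slide fixed and array weights. The same replicate numbers did not pair fish across groups, and the replicate block changed no other overall difference or effect of a member. Leaving out each fish in turn kept every call on the overall differences, with BCL6A from 0.739 to 0.915 (18 ppt minus 2.3 ppt) and from 1.206 to 1.382 (18 ppt minus 0.4 ppt), and EYA2 from -0.848 to -0.756 and GADD45 from -0.913 to -0.704 in the 18 ppt minus 0.4 ppt comparison.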
